A study of Mus musculus with 2 samples.

Results

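The immediate early AP-1 genes are 10 genes, chosen by name, of the 31053 features in the deposited count tables. They are the Fos family members Fos, Fosb and Fosl2, the Jun family members Jun, Junb and Jund, the stress-responsive factor Atf3, the zinc-finger factor Egr1, the small nuclear protein gene Ier2 and the phosphatase gene Dusp1. All 10 were found, each on 1 row. They were followed across classes of cells taken from tumours and sorted for leukocytes, from mice carrying AB1-HA, a mouse mesothelioma line. One single-cell library came from mice given an anti-VEGF antibody and the other from mice given a control antibody. VEGF is the vascular growth factor encoded by Vegfa. Both tumour preparations had been minced, incubated with collagenase A and DNase, stained for CD45, a surface protein of leukocytes, cleared of dead cells with propidium iodide and sorted. Strain, dose, treatment time and the number of mice behind a library are not given in the sources used here.

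AP-1 is a transcription factor made of a Fos and a Jun protein, or of related leucine-zipper proteins, bound together on DNA. Immediate early genes are transcribed within minutes of a stimulus from factors that already stand in the cell, so that growth factors, cytokines, stress and handling all raise them. Fos and Egr1 are classical targets of the MAP kinase pathway, and Dusp1 encodes a phosphatase that switches MAP kinases off again. In mice, Fos is needed for osteoclasts to form, and Atf3 restrains inflammatory gene expression in macrophages. Enzymatic dissociation of tissue is known to induce the same genes. Both libraries went through the same digestion and neither has an undigested counterpart, so induction in the animal and induction during digestion cannot be told apart here.

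Each group was 1 library, so there was no replicate and no test between groups. Values are given with exact 95% intervals (Poisson for levels, conditional binomial for ratios, Clopper-Pearson for shares), which cover counting error only. The anti-VEGF library had 213948867 UMIs (unique molecular identifiers, each marking 1 captured transcript) over 8825 barcodes, and the control library had 233687412 UMIs over 11687 barcodes. The cell filter kept 8159 anti-VEGF and 10805 control cells, with median depths of 22503 and 18265 UMIs. The 10 genes together gave 1182576 UMIs in the anti-VEGF library and 1207054 in the control library. There were 35 barcode sequences present in both libraries, and they were kept apart by library.

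Regulatory sequence of 4 members is shown because their promoters carry recognisable stimulus-responsive elements. Sequences are from RefSeq promoters (build GRCm38.p6), which were available for 8 of the 10 members. They run 5′ to 3′ on the gene's strand, capitals mark the motif matches, and positions count back from the base before the transcription start.
Fos, chr12:85473770-85473889, plus strand, bases −120 to −1: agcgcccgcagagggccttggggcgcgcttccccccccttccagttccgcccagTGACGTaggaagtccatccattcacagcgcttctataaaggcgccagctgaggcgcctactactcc
Jun, chr4:95052223-95052342, minus strand, bases −120 to −1: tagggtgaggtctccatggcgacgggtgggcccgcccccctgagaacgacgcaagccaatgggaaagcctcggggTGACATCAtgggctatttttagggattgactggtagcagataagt
Dusp1, chr17:26508593-26508672, minus strand, bases −200 to −121: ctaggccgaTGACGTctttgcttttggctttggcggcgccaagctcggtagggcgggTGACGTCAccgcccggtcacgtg
Atf3, chr1:191183334-191183453, minus strand, bases −120 to −1: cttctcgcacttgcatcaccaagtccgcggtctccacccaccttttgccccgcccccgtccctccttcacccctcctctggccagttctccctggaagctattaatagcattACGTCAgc

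The letters TGACGTCA are the palindromic cyclic AMP response element, TGACGT is its shorter form, TGACATCA is the variant known from the Jun promoter and TGACTCA is the AP-1 site itself. Each was searched on both strands of the window from 250 bases before to 50 bases after the start, in all 32817 promoters of the table. TGACGT was found in Fos, Atf3 and Dusp1, against 7.51% of all promoters, and TGACGTCA, which contains it, in Dusp1 alone, against 1.79%. TGACATCA was found in Jun, against 3.62% of promoters. None of the 8 member windows available held TGACTCA, which 5.2% of promoters held, or the CArG box of serum response factor, which 1.63% held. Members without a promoter in the table and bases outside the window were not searched. In Fos the match lay at −66 to −61, in Jun at −45 to −38 and in Atf3 at −8 to −3, where it reads ACGTCA because it is on the opposite strand. In Dusp1 matches began at −191 and at −143. These are letter matches in a fixed window and say nothing of binding.

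Cell classes were gated on marker genes and not on the 10 genes. Macrophage-like cells, gated on C1qa, C1qb, C1qc, Csf1r and 5 other genes, were the largest class, with 3777 anti-VEGF and 4698 control cells. Osteoclast-like cells, gated on Acp5, Ctsk, Atp6v0d2, Mmp9, Ocstamp and Dcstamp, numbered 591 and 804. All 6 markers were detected in at least 50% of them. Collagen-expressing cells numbered 610 and 406. In them 4 of 7 collagen-cell markers reached 50% of cells, but Ptprc, which encodes CD45, had a UMI in only 7.38% of the anti-VEGF and 8.13% of the control cells, so their presence goes against the labelled sort. Neutrophil-like cells numbered 242 and 50, T cell-like cells 48 and 64, and mature dendritic-like cells 21 and 32. Neutrophil-like cells were shallow, with median depths of 2225 and 2388 UMIs. No gate was passed by 1339 anti-VEGF and 1368 control cells with at least 5000 UMIs and by 1079 and 2829 cells below that depth. More than 1 gate was passed by 427 and 485 cells, which were left out. The macrophage-like and osteoclast-like gates counted as separate gates in this.

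**Figure D1:**
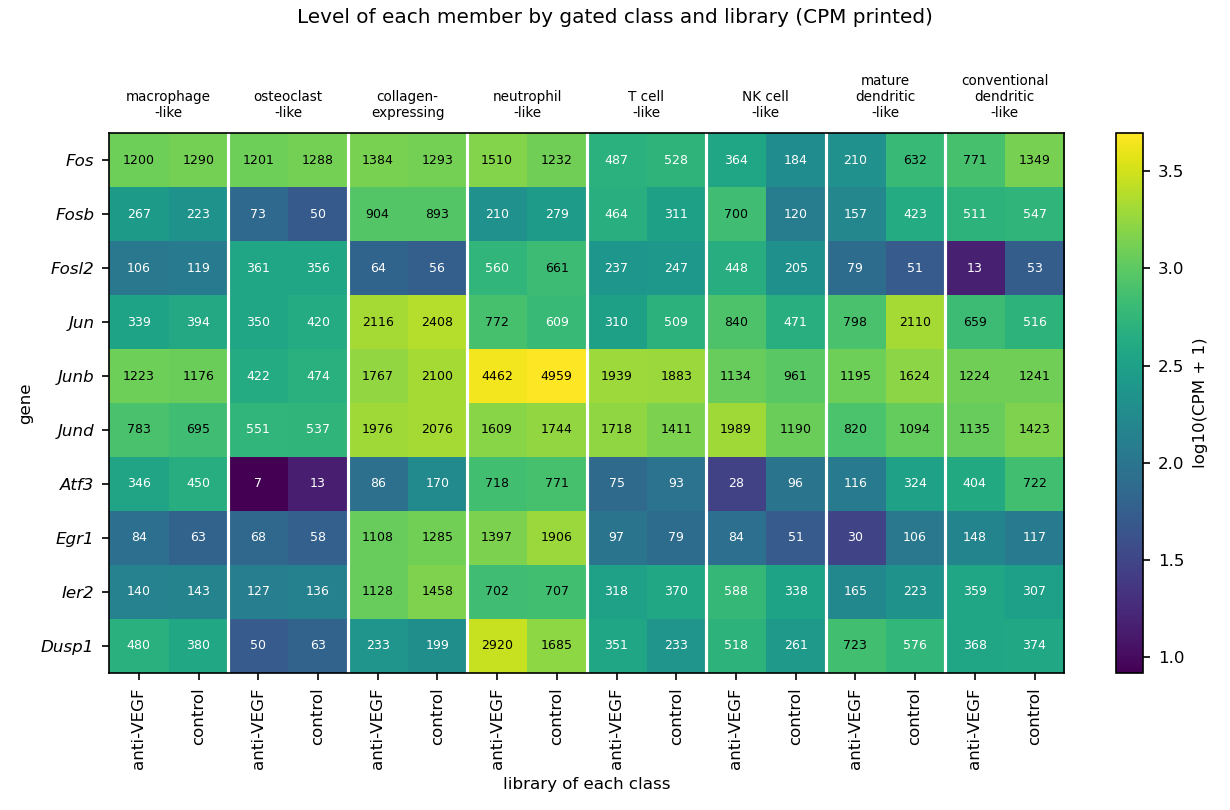
Level of the 10 genes (rows) in 8 gated classes, with the anti-VEGF library left of the control library within each class; colour is log10 of CPM plus 1 and the printed numbers are CPM. Junb peaks in neutrophil-like cells, Egr1 and Ier2 are high in neutrophil-like and collagen-expressing cells, and Atf3 is nearly empty in osteoclast-like cells.

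Summed over the 10 genes, the level was 14861 CPM (UMIs scaled to a class total of 1000000) in anti-VEGF and 14552 CPM in control neutrophil-like cells. Collagen-expressing cells had 10767 and 11938 CPM, macrophage-like cells 4967 and 4931 CPM, and osteoclast-like cells 3212 and 3395 CPM. The order of these 4 classes was the same in both libraries. CPM of 3′ tags counts transcripts and is not divided by gene length, since each transcript gives 1 tag.

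Fos (chr12:85473890-85477273, mm10), the founding member of its family, was the most even of the Fos family. Its level was 1201 CPM (interval 1186 to 1216) in anti-VEGF and 1288 CPM (1274 to 1302) in control osteoclast-like cells. Macrophage-like cells had 1199.6 CPM (1193 to 1206) and 1289.5 CPM (1283 to 1296). The ratio of osteoclast-like to macrophage-like cells was 1.00 in the anti-VEGF library (0.988 to 1.02) and 0.999 in the control library (0.987 to 1.01), so the level of Fos did not separate the classes beyond counting error. Collagen-expressing cells had 1384 and 1293 CPM and neutrophil-like cells 1510.0 and 1232 CPM. T cell-like cells were low, with 487 CPM in the anti-VEGF and 528 CPM in the control library, which is 0.406 and 0.409 times the macrophage-like level.

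Fosb (chr7:19302696-19310051), a close relative of Fos, and Fosl2 (chr5:32135801-32157842), known as Fra-2, lay on opposite sides of the macrophage-like level in osteoclast-like and collagen-expressing cells. In T cell-like cells both were above it, Fosb 1.74-fold in the anti-VEGF and 1.40-fold in the control library and Fosl2 2.24-fold and 2.09-fold. Among the 6 classes of at least 20 cells, Fosb was highest in collagen-expressing cells, at 904 CPM in the anti-VEGF and 893 CPM in the control library, and lowest in osteoclast-like cells, at 73.3 and 49.8 CPM. Macrophage-like cells lay between, at 267 and 223 CPM. Fosl2 was 361 CPM in anti-VEGF and 356 CPM in control osteoclast-like cells, against 106 and 119 CPM in macrophage-like cells. Its ratio of osteoclast-like to macrophage-like cells was 3.41 (3.31 to 3.51) and 3.001 (2.92 to 3.08). Neutrophil-like cells had still more Fosl2, at 559.9 and 661 CPM, and collagen-expressing cells least of these 4 classes, at 64.2 and 55.8 CPM. As a result Fosl2 made up 22.1% of the Fos family UMIs of anti-VEGF and 21.0% of control osteoclast-like cells, against 6.74% and 7.28% in macrophage-like cells. In collagen-expressing cells Fosb took 38.4% and 39.8% of the family, and Fosl2 2.73% and 2.49%.

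Jun (chr4:95049034-95052222), a partner of Fos in AP-1, was highest among those 6 classes in collagen-expressing cells. It had 2116 CPM (2098 to 2133) in the anti-VEGF and 2408 CPM (2385 to 2431) in the control library there, against 339 and 394 CPM in macrophage-like cells. The ratio of collagen-expressing to macrophage-like cells was 6.24 (6.15 to 6.32) and 6.10 (6.02 to 6.19). Osteoclast-like cells had 350.4 and 419.7 CPM, close to macrophage-like cells.

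Junb (chr8:84974484-84978718), which competes with Jun for Fos partners, had its highest level in neutrophil-like cells, at 4462 CPM (4313 to 4616) in the anti-VEGF and 4959 CPM (4613 to 5323) in the control library. Macrophage-like cells had 1223 and 1176 CPM, and osteoclast-like cells 422 and 474 CPM. The osteoclast-like level was thus 0.345 times (0.337 to 0.353) and 0.403 times (0.395 to 0.410) the macrophage-like one. Jund (chr8:70698949-70700616), the member known for steady expression without a stimulus, spanned the narrowest range of the Jun family, 3.59-fold in the anti-VEGF and 3.87-fold in the control library over those 6 classes. It was 1976 and 2076 CPM in collagen-expressing cells, 783 and 695 CPM in macrophage-like cells and 551 and 537 CPM in osteoclast-like cells. Junb made up 65.2% of the Jun family UMIs of anti-VEGF and 67.8% of control neutrophil-like cells, 52.1% and 51.9% in macrophage-like cells and 31.9% and 33.1% in osteoclast-like cells.

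**Figure D2:**
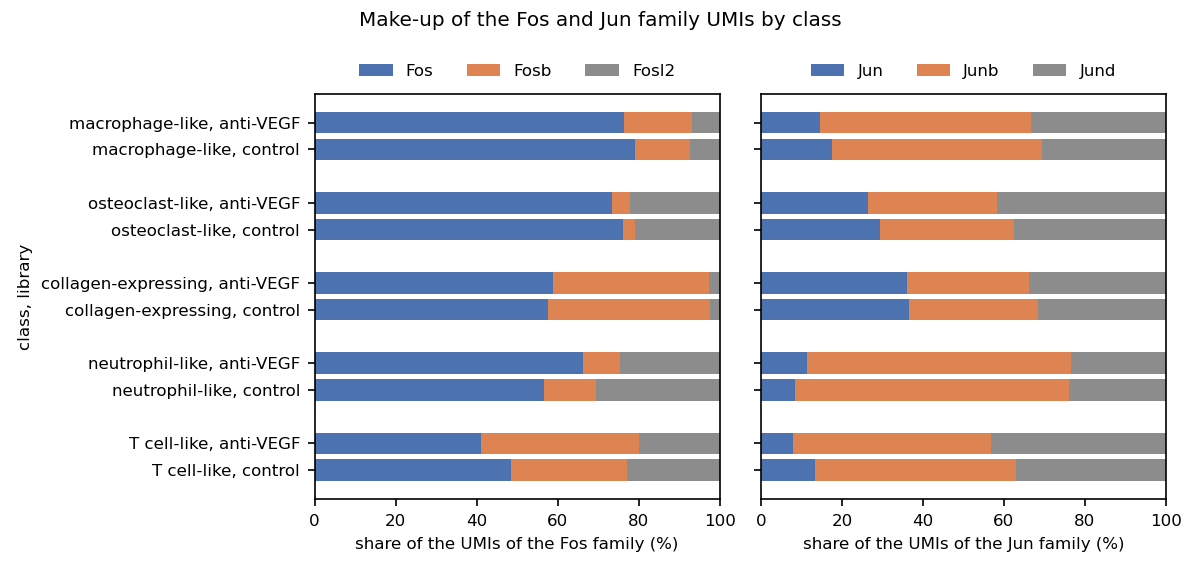
Share of the Fos family UMIs (left, Fos, Fosb and Fosl2) and of the Jun family UMIs (right, Jun, Junb and Jund) in 5 classes, with the anti-VEGF bar above the control bar; bars add to 100%. The larger Fosl2 share of osteoclast-like cells, the larger Fosb and Jun shares of collagen-expressing cells and the Junb share of neutrophil-like cells appear in both libraries.

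Atf3 (chr1:191170296-191218039) encodes a stress-responsive member of the ATF family that pairs with Jun proteins. The RefSeq start of the promoter printed above lies inside this GENCODE gene span, and that of Dusp1 lies inside the span of Dusp1. Atf3 was nearly absent from osteoclast-like cells, at 7.29 CPM (6.16 to 8.57) in the anti-VEGF and 13.0 CPM (11.7 to 14.5) in the control library. Macrophage-like cells had 346 and 449.6 CPM and neutrophil-like cells 718 and 771 CPM. The osteoclast-like level was 0.0210 times (0.0178 to 0.0247) and 0.0290 times (0.0260 to 0.0323) the macrophage-like one. Free RNA in the droplets can contribute to so low a level, and its part was not tested. At 5000 UMIs per cell, 3.24% of anti-VEGF and 4.42% of control osteoclast-like cells had an Atf3 UMI, while C1qb, a macrophage complement gene, had a UMI in 7.80% and 17.3% of collagen-expressing cells, which should lack it. C1qb is not matched to Atf3 in abundance, so the comparison does not set a background for Atf3. Collagen-expressing cells had 85.9 CPM of Atf3 in the anti-VEGF and 170.4 CPM in the control library. The 9 macrophage markers summed to 131 and 185 CPM there, and to 13440 and 18592 CPM in macrophage-like cells. Cells that passed both gates had been left out, which holds down this sum in collagen-expressing cells. It therefore does not set a background for Atf3 either, and the part of macrophage RNA was not tested.

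Egr1, on chromosome 18, and Ier2 (chr8:84661331-84662852) separated the classes most sharply upwards. Egr1 was 1108 CPM (1096 to 1121) in anti-VEGF and 1285 CPM (1268 to 1302) in control collagen-expressing cells, and 1397 and 1906 CPM in neutrophil-like cells. Macrophage-like cells had 83.6 and 62.7 CPM and osteoclast-like cells 68.4 and 57.9 CPM. Collagen-expressing cells thus exceeded macrophage-like cells 13.3-fold (12.9 to 13.6) in the anti-VEGF and 20.5-fold (19.96 to 21.04) in the control library. Ier2 was 1128 and 1458 CPM in collagen-expressing cells, 702 and 707 CPM in neutrophil-like cells and 140.2 and 143 CPM in macrophage-like cells.

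Dusp1 (chr17:26505590-26562128), the MAP kinase phosphatase, was 2920.4 CPM (2799.7 to 3045) in anti-VEGF and 1685 CPM (1487 to 1903) in control neutrophil-like cells. Macrophage-like cells had 479.5 and 380.5 CPM. Osteoclast-like cells had 50.4 and 63.0 CPM, which is 0.105 times (0.0988 to 0.112) and 0.166 times (0.157 to 0.174) the macrophage-like level. Dusp1 thus shared with Atf3, Junb and Fosb a low level in osteoclast-like cells, while Fos and Jun stood near the macrophage-like level in the same cells.

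Counting a member as different when it was at least 2-fold away from macrophage-like cells in both libraries, osteoclast-like cells had 1 of 10 higher (Fosl2; 7.09% of 12665 genes with enough UMIs were higher) and 4 of 10 lower (Fosb, Junb, Atf3 and Dusp1; 11.8% of genes were lower). Collagen-expressing cells had 5 higher (Fosb, Jun, Jund, Egr1 and Ier2; 15.9% of genes) and 1 lower (Atf3; 14.3% of genes). Neutrophil-like cells had 6 higher (Fosl2, Junb, Jund, Egr1, Ier2 and Dusp1; 7.33% of genes) and 0 lower (26.8% of genes). T cell-like cells had 3 higher (Fosl2, Jund and Ier2; 9.62% of genes) and 2 lower (Fos and Atf3; 13.5% of genes). No p-value stands behind these counts. The 2 lower calls of T cell-like cells became 1 when cells of 2 gates were kept or when 1 more marker was required.

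Classes differed in depth and in mitochondrial share as well, and the part of either in the class differences was not tested. Osteoclast-like cells carried 5.68% mitochondrial UMIs in the anti-VEGF and 5.73% in the control library, against 3.25% and 3.42% in macrophage-like cells. Neutrophil-like cells carried 0.957% and 1.12%. The median depth was 32091 and 31302 UMIs in osteoclast-like, 41116 and 43622 in collagen-expressing and 23799 and 22486 in macrophage-like cells. With every cell thinned to 5000 UMIs, the counts of members past 2-fold in osteoclast-like and collagen-expressing cells were as above.

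Between the libraries, macrophage-like cells differed little in these genes. Fos was 1199.6 CPM in the anti-VEGF and 1289.5 CPM in the control library, a ratio of 0.930 (0.923 to 0.937). Jun was 339 against 394 CPM (ratio 0.860, 0.848 to 0.872), and Atf3 346 against 449.6 CPM (0.771, 0.760 to 0.781). Egr1 was 83.6 against 62.7 CPM (1.33, 1.29 to 1.38), Dusp1 479.5 against 380.5 CPM (1.26, 1.24 to 1.28) and Fosb 267 against 223 CPM (1.20, 1.18 to 1.22). The other 4 ranged between 0.893 for Fosl2 and 1.13 for Jund, and only the interval of Ier2 held 1. By a threshold of 1.5-fold, 0 of 10 members were higher and 0 of 10 lower in the anti-VEGF library, where 2.61% of 13529 genes were higher and 1.31% lower. The median log2 ratio was 0.016 over the members and −0.080 over all genes tested.

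**Figure D3:**
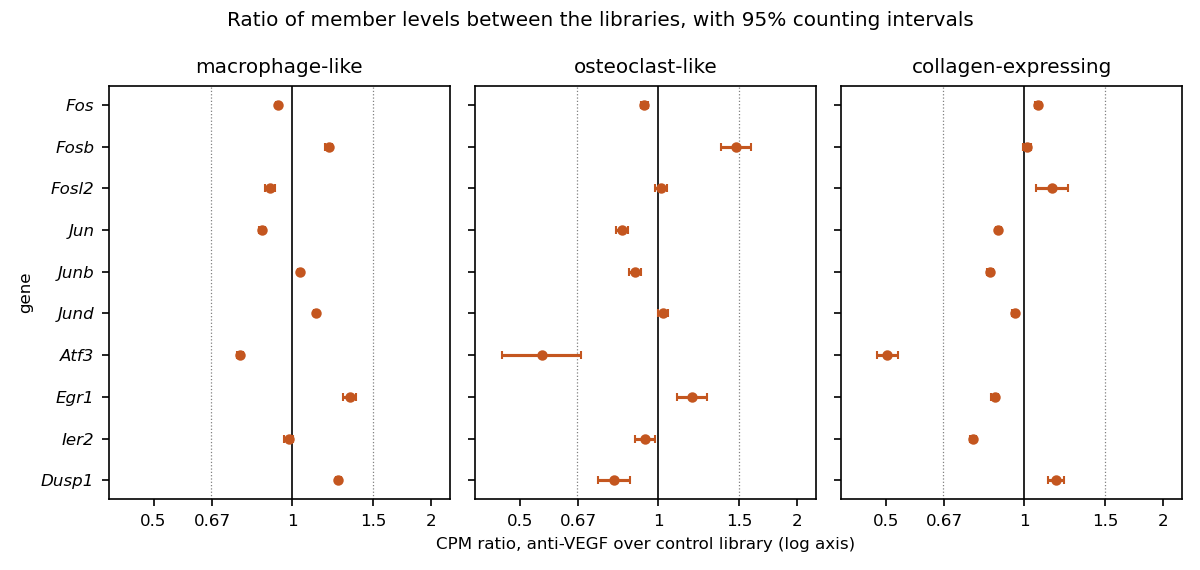
Ratio of CPM in the anti-VEGF library over the control library for each gene in macrophage-like, osteoclast-like and collagen-expressing cells, on a log axis with 95% counting intervals; dotted lines mark 1.5-fold either way. Atf3 is the gene past the lower line in osteoclast-like and collagen-expressing cells, and Egr1 lies right of 1 in the first 2 panels and left of it in the third.

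Atf3 was the member with the lowest ratio in each of the 3 large classes. In collagen-expressing cells it was 85.9 CPM (82.4 to 89.5) in the anti-VEGF and 170.4 CPM (164 to 177) in the control library, a ratio of 0.504 (0.477 to 0.532). It was the 1 member of 10 lower there (2.57% of 11773 genes) and no member was higher (3.01%). Under all 11 alternative settings it remained past 1.5-fold lower. At 5000 UMIs per cell, 18.8% of anti-VEGF and 31.9% of control collagen-expressing cells had an Atf3 UMI. The C1qb share of the same cells, 7.80% and 17.3%, moved in the same direction, and its part in the Atf3 difference was not tested. In osteoclast-like cells Atf3 had a ratio of 0.559 (0.457 to 0.680), the 1 call of 10 lower (1.7% of 11192 genes) with 0 higher (1.19%). That ratio rests on 147 and 330 UMIs, and it turned above 1 when cells of 2 gates were kept (log2 ratio 0.41) or 1 more marker was required (0.14), so no difference is read from it.

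Jun was below 1 in all 3 classes but not in ungated cells of at least 5000 UMIs (ratio 1.37), at 0.860 in macrophage-like, 0.835 (0.810 to 0.860) in osteoclast-like and 0.879 (0.868 to 0.890) in collagen-expressing cells. Fosb was above 1 in osteoclast-like cells (1.47, 1.37 to 1.59), with 73.3 CPM in the anti-VEGF and 49.8 CPM in the control library. In collagen-expressing cells the Fosb ratio was 1.01 (0.993 to 1.03). Ier2 had a ratio of 0.774 (0.761 to 0.787) in collagen-expressing cells, where Egr1 had 0.863 (0.848 to 0.878) and Junb 0.841 (0.830 to 0.853).

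Among macrophage-like cells, 6 overlapping subsets were formed from summed markers, with 734 anti-VEGF and 890 control cells in more than 1 of them. The Ly6c2 Ccr2 subset (234 and 309 cells), whose markers are those of recent monocytes, and the class II-high subset (747 and 1060 cells) had the highest summed level of the 10 genes, at 6369 and 6973 CPM and at 6182 and 6377 CPM. The cycling subset (519 and 921 cells) had the lowest, at 4114 and 4199 CPM. Fos was 1546 CPM in anti-VEGF and 2035 CPM in control cells of the Ly6c2 Ccr2 subset, 1574 and 1702 CPM in the class II-high subset and 1004 and 954 CPM in the Lyz1 Ch25h subset (544 and 305 cells). The Selenop Stab1 subset (481 and 1301 cells), named from genes of resident macrophages, had 1199 and 1130 CPM of Fos.

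**Figure D4:**
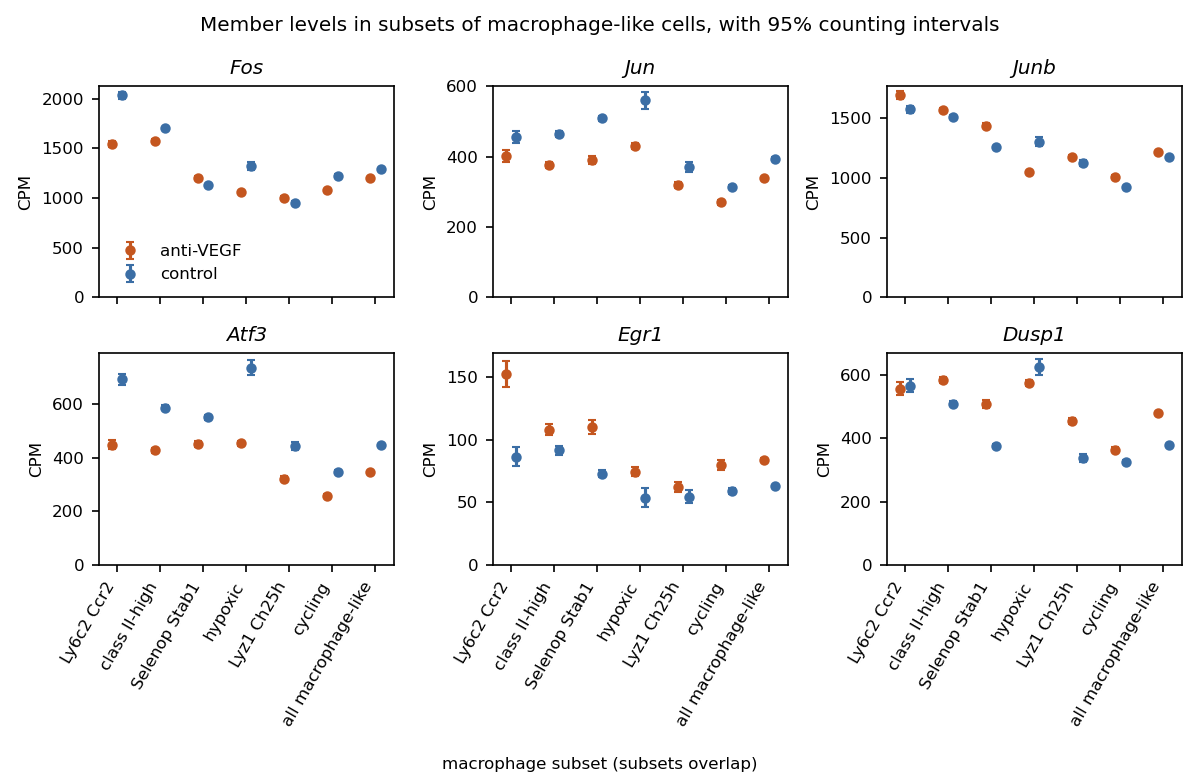
CPM of 6 of the genes in 6 overlapping subsets of macrophage-like cells and in all macrophage-like cells, anti-VEGF left of control, with 95% counting intervals; the vertical axes start at 0. Atf3 and Jun lie lower and Egr1 higher in the anti-VEGF library in every subset (Egr1 in the hypoxic subset turned under 2 alternative settings), while Fos, Junb and Dusp1 change sides between subsets.

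Atf3 and Jun were lower and Egr1 was higher in the anti-VEGF library in each of the 6 subsets, except that Egr1 in the hypoxic subset turned under 2 of the 11 alternative settings. The subsets share cells and come from the same 2 libraries, so they are not independent repeats. Atf3 was 455.8 CPM in anti-VEGF and 736.6 CPM in control cells of the hypoxic subset (819 and 170 cells), a ratio of 0.619 (0.593 to 0.646) and the 1 of 10 members lower there (3.78% of genes), with 0 higher (4.11%). In the Ly6c2 Ccr2 subset it was 449.6 against 694.1 CPM (0.648, 0.616 to 0.681), the 1 member lower (5.1% of genes). Egr1 was 152 CPM in anti-VEGF and 86.6 CPM in control cells of the Ly6c2 Ccr2 subset (1.76, 1.57 to 1.97), the 1 member higher (6.02% of genes). In the Selenop Stab1 subset it was 110.0 against 72.8 CPM (1.51, 1.41 to 1.61; 2.73% of genes higher), with 0 of 10 members lower (2.47%). In the hypoxic subset the Egr1 ratio of 1.39 rested on few UMIs and turned below 1 with cells thinned to 5000 UMIs (log2 ratio −0.18) or without the top doublet scores (−0.069). The Ly6c2 Ccr2 calls ended under 2 of the 11 settings for Egr1 and under 3 for Atf3, and the Selenop Stab1 call of Egr1 ended under 6. In the class II-high, Lyz1 Ch25h and cycling subsets 0 of 10 members passed 1.5-fold in either direction, where 2.92%, 3.17% and 2.34% of genes were higher and 1.63%, 4.24% and 1.4% lower.

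Cells that passed no gate are no single class, and they carried the members unevenly. At 5000 UMIs or more they had 1 of 10 members at least 2-fold lower than macrophage-like cells in both libraries (Atf3; 3.78% of genes) and 0 higher (1.91%). Between the libraries, 4 of the 10 were at least 1.5-fold higher in anti-VEGF cells (11.1% of 12274 genes) and 0 lower (4.37%). These were Egr1 (187 against 71.9 CPM, ratio 2.61), Atf3 (161 against 82.2 CPM, 1.96), Fosb (218 against 113 CPM, 1.93) and Dusp1 (272 against 162 CPM, 1.67). Jun was higher in the anti-VEGF library in these cells as well (432 against 317 CPM, 1.37, 1.33 to 1.40), opposite in direction to the 3 gated classes. In these cells the 6 hypoxia markers summed to 1154 CPM in the anti-VEGF and 204 CPM in the control library, and the 6 osteoclast-like markers to 2834 and 4450.1 CPM. Egr1, Atf3, Fosb, Dusp1 and Jun were all lower in the control library, which had the higher osteoclast-like and the lower hypoxia marker sum. The part of this make-up was not tested. Below 5000 UMIs, where the median cell had 1043 and 1214 UMIs, Egr1 was the 1 member at least 2-fold higher than in macrophage-like cells (182 and 139.8 CPM; 3.88% of genes), and 0 were lower (1.1%). Dusp1 was the 1 member past 1.5-fold higher in anti-VEGF cells (393 against 229 CPM, 1.71; 6.41% of 9062 genes), with 0 lower (22.3%).

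The libraries also differed in the make-up of their macrophage-like cells. The hypoxic subset was 10.0% of kept cells in the anti-VEGF and 1.57% in the control library, and the Selenop Stab1 subset 5.90% and 12.04%. The 6 hypoxia markers summed to 1261 CPM in anti-VEGF and 458 CPM in control macrophage-like cells. The part of this make-up in the library ratios was not tested.

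Depth touched some of these ratios. In macrophage-like cells of 5000 to 15000 UMIs Fos was 1288 CPM in the anti-VEGF and 1630.5 CPM in the control library, in cells of 15000 to 30000 UMIs 1215 and 1404 CPM, and above 30000 UMIs 1179 and 1163 CPM. The lower Fos level of the anti-VEGF library was thus not present in the deepest cells. Atf3 kept its direction at each depth, with 381 against 507 CPM, 360.3 against 484 CPM and 332 against 417 CPM. Dusp1 did so too, with 614 against 523 CPM, 497 against 416 CPM and 450.1 against 337 CPM. For Egr1 the lowest depth showed 83.5 against 85.3 CPM and the highest 91.3 against 59.3 CPM.

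Most macrophage-like cells carried several of the 10 transcripts at once. After thinning to 5000 UMIs, which left out 83 anti-VEGF and 431 control macrophage-like cells, the median cell had a UMI of 6 members in either library, and 48.0% of anti-VEGF and 47.6% of control cells had at least 7. In osteoclast-like cells the median was 5 and the share with at least 7 was 13.7% and 15.3%. Collagen-expressing cells had a median of 7, with 65.8% and 66.0% at 7 or more, but 2.03% and 5.50% of them had none.

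**Figure D5:**
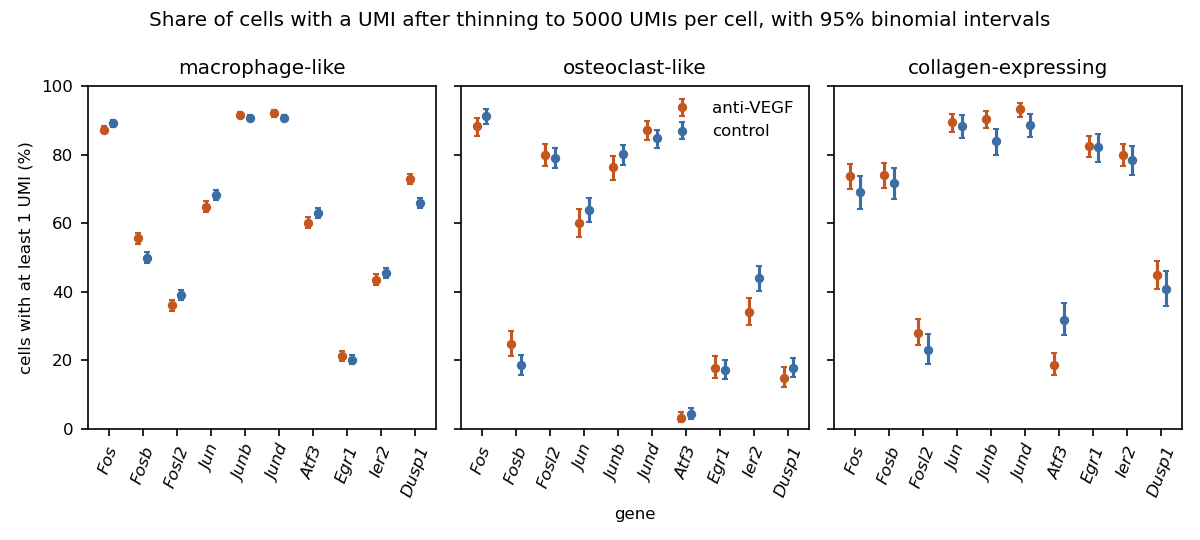
Share of macrophage-like, osteoclast-like and collagen-expressing cells with at least 1 UMI of each gene after thinning to 5000 UMIs per cell, anti-VEGF left of control, with 95% binomial intervals. Jund, Junb and Fos are detected in most macrophage-like cells and Egr1 in 21.3% of anti-VEGF and 20.2% of control ones, while Egr1 and Ier2 are detected in most collagen-expressing cells.

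Fos had a UMI in 87.3% (86.2 to 88.3) of anti-VEGF and 89.1% (88.2 to 90.04) of control macrophage-like cells after thinning, and in 96.1% and 95.9% before it. For Dusp1 the thinned shares were 72.8% (71.3 to 74.2) and 65.9% (64.4 to 67.3), and for Fosb 55.7% (54.1 to 57.3) and 49.99% (48.5 to 51.5). Before thinning these were 89.3% and 83.5% for Dusp1 and 82.3% and 75.2% for Fosb. None of the classes is known to lack these genes, so no free-RNA share could be taken for them. Egr1 was found in 21.3% (19.97 to 22.6) and 20.2% (19.1 to 21.5) of thinned and in 47.9% and 41.4% of unthinned macrophage-like cells. The intervals of the thinned shares overlapped between the libraries. In collagen-expressing cells Egr1 was found in 82.5% (79.2 to 85.5) and 82.2% (78.0 to 85.9).

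The genes differed in how unevenly cells carried them. The 10% of macrophage-like cells with most Egr1 held 71.0% of its UMIs in the anti-VEGF and 68.7% in the control library, at a mean of 0.390 and 0.327 UMIs per thinned cell. For Fosl2, at a similar mean of 0.531 and 0.596, the figure was 47.6% and 44.9%. For Junb it was 28.2% and 28.4% and for Fos 31.1% and 33.1%, against 17.7% and 17.0% for the actin gene Actb. Low means raise such shares by themselves.

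Detection of the members overlapped within cells. In macrophage-like cells, 43 of 45 pairs in each library had the second gene more often in cells with the first than in cells without it, at equal depth. The gap between these shares ran from −2.0 to 38.8 points in the anti-VEGF and from −3.5 to 35.7 points in the control library. Fos and Dusp1 had the widest gap in both. Dusp1 was found in 77.7% of anti-VEGF macrophage-like cells with Fos and in 38.9% of those without it. In the control library the shares were 69.7% and 34.1%. In collagen-expressing cells there were 44 such pairs of 45 in each library. Jund and Egr1 had the widest gap of the control library there. Egr1 was found in 85.8% of anti-VEGF collagen-expressing cells with Jund and in 37.5% of those without it, and in the control library in 90.9% and 13.95%. The shares without Jund rest on few cells, since 550 of 590 anti-VEGF and 339 of 382 control cells had it. In osteoclast-like cells there were 35 such pairs of 45 in the anti-VEGF and 40 of 45 in the control library. These are descriptions of cells that share a library. Pairs of other genes were not counted, so it is not known whether the members stand out in this.

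Other genes of the same response were read from a list of 33 other immediate early and early response genes. Against macrophage-like cells, 18 of 33 were at least 2-fold lower in osteoclast-like cells in both libraries and 0 higher. Among them were Btg2, an antiproliferative gene (10.2 CPM in anti-VEGF and 12.5 CPM in control osteoclast-like cells, against 129 and 172 CPM in macrophage-like cells), Zfp36, whose product destabilises cytokine mRNAs (202 and 237 CPM against 586 and 649 CPM), and the orphan receptor gene Nr4a1 (36.8 and 43.2 CPM against 102.3 and 110.6 CPM). In neutrophil-like cells 22 of 33 were higher and 3 lower. Btg2 was 1820.4 and 2774 CPM and Nr4a1 449.8 and 713 CPM there. In collagen-expressing cells 1 was higher (Cyr61, a matricellular protein gene, at 302 and 416 CPM against 1.91 and 0.783 CPM in macrophage-like cells) and 7 were lower, so that the higher Jun, Egr1 and Ier2 of these cells did not extend to most of the list. The shares over all genes are those given with the counts of members above.

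The list of 14 other AP-1 and leucine-zipper partners had 1 gene higher (7.09% of all genes were) and 6 lower (11.8%) in osteoclast-like cells. The higher one was Jdp2, a Jun dimerisation partner known in mice to promote osteoclast formation, with 966 CPM in anti-VEGF and 892 CPM in control osteoclast-like cells, against 80.5 and 117 CPM in macrophage-like cells. Of 10 other dual-specificity phosphatase genes, 1 was higher and 4 were lower in osteoclast-like cells, against the same shares. In collagen-expressing cells 3 were higher (15.9% of all genes) and 3 lower (14.3%). The 14 upstream kinases and factors, such as MAP kinases and the factors that switch on Fos, had 0 higher (7.09%) and 2 lower (11.8%) in osteoclast-like cells. In collagen-expressing cells they had 0 higher (15.9%) and 1 lower (14.3%).

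Heat-shock genes, which rise with warming and protein damage, were read as a further list. Of 11, 3 were higher in osteoclast-like than in macrophage-like cells (Hspa1a, Hspa1b and Dnajb1; 7.09% of genes) and 0 lower (11.8%). Hspa1a was 366 CPM in anti-VEGF and 545 CPM in control osteoclast-like cells, against 162 and 253 CPM in macrophage-like cells. Hspa1a and Hspa1b are near-identical copies, so the division of reads between them is uncertain. In collagen-expressing cells 5 of 11 were higher (Hspa1b, Hsp90ab1, Hspd1, Dnaja1 and Dnajb1, against 15.9% of genes) and 2 lower (Hspa1a and Hspb1, against 14.3%). The opposite calls of Hspa1b and Hspa1a share the uncertainty in dividing reads between these copies. Dnajb1 was 710.0 and 979.9 CPM there, against 50.4 and 52.9 CPM in macrophage-like cells. Between the libraries, 9 of 11 heat-shock genes had a ratio below 1 in macrophage-like cells, where 9102 of 13529 genes did, with a median log2 ratio of −0.16 against −0.080 over all genes. Of these, Hspa1a (0.642, 0.630 to 0.654) and Hspa1b (0.621, 0.608 to 0.633) were past 1.5-fold lower, where 1.31% of genes were. In collagen-expressing cells 11 of 11 were below 1, where 7555 of 11773 genes were, with a median of −0.23 against −0.079 over all genes. The part of handling in the ratios of the 10 genes was not tested.

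Between the libraries in macrophage-like cells, the median log2 ratios of the partner, other immediate early, phosphatase and upstream lists lay between −0.036 and 0.075. Past 1.5-fold in either direction were 4 of their genes, where 2.61% of all genes were higher and 1.31% lower. Of the 33 other immediate early genes, 16 were above and 17 below 1 in macrophage-like cells, with a median log2 ratio of −0.0073, and 1 was past 1.5-fold higher. Egr3, a relative of Egr1, was 11.7 CPM in anti-VEGF and 7.61 CPM in control cells (ratio 1.53, 1.41 to 1.67). Its log2 ratio of 0.56 falls short of 1.5-fold because of the added 1 CPM. The passing gene was Cyr61, at 1.91 against 0.783 CPM, a low level in these cells. Btg2 was lowest of the list, at 129 against 172 CPM (0.750, 0.733 to 0.766). Among the partners, Batf was past 1.5-fold lower (7.26 against 12.1 CPM), and Jdp2 had a ratio of 0.690 (0.672 to 0.710). Dusp2, a nuclear MAP kinase phosphatase, was 19.6 against 34.6 CPM (0.566, 0.537 to 0.598), opposite in direction to Dusp1, while Dusp10 was 6.90 against 4.12 CPM (1.67, 1.49 to 1.88). The 14 upstream genes spanned log2 ratios from −0.13 for Elk4 to 0.33 for the MAP kinase kinase gene Map2k1.

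The genes most like the members were ranked by the correlation of their log2 level with the members' mean, over 23 sums of class, subset or ungated cells in 1 library, among 4514 genes with a level of at least 50 CPM in a sum. The sums share libraries and the subsets share cells, so no p is given. The first 8 were Coq10b (r = 0.955), Trib1 (0.936), Ier5 (0.936), Sertad1 (0.935), Nsd3 (0.924), Notch2 (0.922), Btg2 (0.921) and Bcl10 (0.919). Trib1, a pseudokinase gene, ranged up to 876 CPM in anti-VEGF neutrophil-like cells, against 66.8 CPM in anti-VEGF macrophage-like cells. Within the set, Junb (r = 0.943) and Jund (0.836) tracked the mean of the other 9 most closely, Atf3 (0.317) and Fos (0.364) loosely, and Fosl2 ran against it (−0.255).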

How the data were processed

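The authors deposited unnormalised UMI counts for each barcode that their pipeline had called a cell. Per the submitters' processing notes they used Cell Ranger 3.0.2 and mm10, and the file headers name software version 3.1.0. Cells were kept from 300 genes and 500 UMIs upwards, with a mitochondrial share of 10% or less (92.45% in each library). A marker counted from 2 UMIs. A lineage class needed 3 of its markers, the osteoclast-like class 5 of 6 and the macrophage-like class 6 of 9. T cell markers overrode NK markers, mature dendritic markers overrode conventional ones, and any other cell passing 2 gates was left out as a likely doublet. Subsets of macrophage-like cells needed 10 to 50 marker UMIs per 10000. The members and lists were chosen with earlier results of these data known, the marker lists were set before gating, and the gate thresholds were set after seeing marker values but not member values.

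CPM is the summed count of a gene in a class of 1 library over the total of that class. The log2 ratio used 1 CPM as pseudocount, on the log2(CPM + 1) scale, and genes with at least 30 UMIs. With 1 library per group no test was made. Members were named throughout, list genes by their lists, and others only by the likeness ranking, on log2(CPM + 10). Shares and co-detection used cells thinned to 5000 UMIs. The ratio step was tested on simulated counts. Alternatives were a stricter cell filter (1000 genes, 2000 UMIs, 5% mitochondrial), removal of the top Scrublet scores at 0.8% per 1000 barcodes (scanpy 1.11.5), keeping cells of 2 gates, edgeR 4.0.16 TMM scaling, a total without mitochondrial, ribosomal and haemoglobin genes, means over cells, thinning, 1 more marker, leaving out the top 1% of cells of a gene, a pseudocount of 10 CPM and no filter on low counts. Gene coordinates are GENCODE M21 (mm10). Python 3.11.15, numpy 2.4.6, scipy 1.17.1 and pandas 2.3.3 were used.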

Additional observations from a re-analysis of the deposited data

Results flagged for a closer look

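In 6 genes the difference between the libraries lay on opposite sides of 1 in different classes, by intervals that did not hold 1. The difference between classes was not tested, since each class has 1 library per group, and all values are log2 ratios of the anti-VEGF over the control library. For Egr1 the ratio was 0.41 in macrophage-like and 0.24 in osteoclast-like cells, but −0.21 in collagen-expressing cells. For Dusp1 it was 0.33 in macrophage-like and 0.23 in collagen-expressing cells and −0.32 in osteoclast-like cells. The osteoclast-like Dusp1 value turned to 0.32 with cells of 2 gates kept, and the osteoclast-like Egr1 value to −0.16 under the stricter cell filter. Junb had 0.056 in macrophage-like, −0.17 in osteoclast-like and −0.25 in collagen-expressing cells. Jund had 0.17 in macrophage-like and −0.071 in collagen-expressing cells, and the second of these turned above 0 under 2 settings. Fos had −0.10 in macrophage-like, −0.10 in osteoclast-like and 0.10 in collagen-expressing cells. Fosl2 had −0.16 in macrophage-like and 0.20 in collagen-expressing cells. None of these ratios passed 1.5-fold.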

How the results depend on the processing

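All values compare 2 libraries without replicates, so spread between mice is unknown, and no left-out replicate could be tried. No paired analysis was possible because each group has 1 library. There were 11 alternative settings, for 26 counts of members and 170 single ratios. Of the counts, 249 kept their value within 1.5 times and 25 moved. Of the single ratios, 1198 moved within their counting interval, 547 beyond it and 15 changed sign. A sign change was counted, and is listed below, only where the main interval left out a ratio of 1. The totals for single ratios include the median over all genes in macrophage-like cells, which has no interval and was judged by a fixed cut-off. The counts in macrophage-like cells (0 higher, 0 lower) and the lower count in collagen-expressing cells between libraries (1, Atf3) held under every setting run. For the other counts of members past 1.5-fold, which were 1 or 0, the higher count became 0 in the Ly6c2 Ccr2 subset with cells of 2 gates kept and without the top Scrublet scores, and in the Selenop Stab1 subset without those scores, with thinning, means over cells, the pseudocount of 10 CPM, the reduced total and without the top 1% of cells. It became 1 in osteoclast-like cells with cells of 2 gates kept, thinning, the stricter cell filter and without the top 1% of cells, in the hypoxic subset with cells of 2 gates kept and 1 more marker, and in the cycling subset with cells of 2 gates kept. The lower count became 0 in the Ly6c2 Ccr2 subset with thinning, means over cells and 1 more marker, and in osteoclast-like cells with cells of 2 gates kept, 1 more marker, the pseudocount of 10 CPM and without the top 1% of cells. Against macrophage-like cells, the lower count was 1 instead of 2 in T cell-like cells with cells of 2 gates kept or 1 more marker, and 2 instead of 1 in collagen-expressing cells under the stricter filter. Signs of log2 ratios between libraries turned for Jund in collagen-expressing cells (0.027 with TMM, 0.0094 with means over cells), for Jund in the Selenop Stab1 subset (−0.014, thinned), for Egr1 in the hypoxic subset (−0.18 thinned, −0.069 without top Scrublet scores), for Egr1 in osteoclast-like cells (−0.16, stricter filter), and in the same cells for Dusp1 (0.32) and Atf3 (0.41) with cells of 2 gates kept and for Atf3 (0.14) with 1 more marker. Ratios to macrophage-like cells turned in control osteoclast-like cells for Ier2 (0.013 with cells of 2 gates kept, 0.049 with the reduced total), Egr1 (0.039) and Jun (−0.12), the last 2 with the stricter filter, in anti-VEGF osteoclast-like cells for Jun (−0.13, same filter) and in control T cell-like cells for Jun (−0.025, thinned). The cause of these changes was not tested. Scrublet's own threshold called 0 anti-VEGF and 1 control doublets, so its top scores (576 and 1010 cells) were removed instead. Neutrophil-like cells gave no value under the stricter filter (5 control cells) or thinning (18 and 1 cells), and TMM none between classes.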

Other observations

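The smallest classes carried some of the highest levels of the 10 genes, from few cells. Mast or basophil-like cells (5 anti-VEGF and 9 control cells) had 4497 CPM (3746 to 5355) and 5008 CPM (4485 to 5575) of Jun, 4390.2 and 4393 CPM of Junb and 3426 and 4723 CPM of Jund, but only 5 and 4 UMIs of Atf3. Conventional dendritic-like cells (9 and 25 cells) had 404 CPM (325 to 496) and 722 CPM (654 to 794) of Atf3, and 3 and 31 UMIs of Fosl2. In mature dendritic-like cells (21 and 32 cells), which carry genes of dendritic cells on their way to lymph nodes, Jun was 798 CPM (694 to 912) in the anti-VEGF and 2110.0 CPM (1972 to 2255) in the control library, and Fos 209.7 and 632 CPM. Differences between libraries in so few cells were not compared further.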
